A study of Rattus norvegicus with 6 samples.

Results

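Macrophage and myeloid genes were examined in the hearts of Dahl S and congenic rats through 39 genes chosen by name: phagocyte surface receptors, complement C1q chains, lysosomal and oxidase genes, and a few regulators. A gene was measured where a probe set of the array was annotated to it and to no other gene, and where it had several such probe sets the brightest on average was used. This gave 33 measured genes of the 39, out of 14217 genes in all. Timd4, Vsig4, Siglec1, Spi1, Msr1 and Marco had no such probe set in the annotation used here. The 33 were divided by what the genes are known for. There were 8 measured genes of 11 listed that are associated with resident macrophages, all 9 associated with monocytes and recruited cells, and 16 of 19 that are shared across myeloid cells, here called pan-myeloid.

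Dahl S is an inbred rat strain bred for a rise of blood pressure when fed salt. Its congenic partner, S.LEW(10)x12x2x3x5, carries a piece of Lewis chromosome 10 on the Dahl S background, so both strains share the Dahl S genome elsewhere. All rats were male, shared a birthday, were weaned at 30 days onto a low-salt (0.3%) diet and were killed at 53 days. Each strain gave 3 arrays, and each array held the pooled heart RNA of 2 rats, which hides the spread between single animals. Values are log2 expression, differences are congenic minus Dahl S, and nothing ties a replicate number to a cage or day.

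The heart holds macrophages from before birth, which keep their number largely by dividing, and others that come from blood monocytes. The receptor for colony-stimulating factor 1 keeps both alive. Resident cells take up debris through scavenger receptors and make most of the C1q that starts the classical complement pathway, whereas recruited cells carry the chemokine receptor Ccr2. Many myeloid genes are switched on by the transcription factor PU.1, encoded by Spi1, which binds a purine-rich site with the core GAGGAA.

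The letters of that core are common in front of the pan-myeloid and monocyte-associated genes examined. RefSeq (rat assembly GRCr8) gave a start site for 25 of the 39 genes. In the 250 bases before the start, 16 of the 25 (64.0%) held GAGGAA on either strand, against 23.3% of all 33469 promoters. The count was 9 of 11 pan-myeloid, 5 of 6 monocyte-associated and 2 of 8 resident-associated genes, the last near the share of all promoters. The longer string GAGGAAGT was present in 3 of the 25 and in 2.04% of all promoters. A match is a description of the letters and not a bound site, and C1qa and Cd163, among others, have no match in this window.

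The 130 bases before the start are printed for 5 genes that follow contrasting patterns below. They are shown because the same letters stand before genes that differ in pattern across the arrays. Fcgr3a and C1qb were higher on every congenic array, whereas Cd53, Laptm5 and Cd68 were highest on a single Dahl S array. Each sequence runs 5′ to 3′ in the direction of the gene and ends at the last base before the start, and capitals mark the core, which reads TTCCTC here because it lies on the opposite strand.
C1qb, chr5:154407828-154407957, minus strand: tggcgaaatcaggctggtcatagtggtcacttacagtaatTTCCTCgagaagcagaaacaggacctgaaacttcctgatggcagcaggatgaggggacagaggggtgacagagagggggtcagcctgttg
Fcgr3a, chr13:85782506-85782635, plus strand: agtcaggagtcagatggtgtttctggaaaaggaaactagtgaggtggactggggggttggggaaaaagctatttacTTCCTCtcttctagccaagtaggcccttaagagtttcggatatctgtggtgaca
Cd68, chr10:54882442-54882571, minus strand: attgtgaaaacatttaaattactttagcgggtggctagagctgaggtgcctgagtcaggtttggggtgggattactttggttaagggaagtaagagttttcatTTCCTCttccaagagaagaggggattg
Cd53, chr2:197087897-197088026, minus strand: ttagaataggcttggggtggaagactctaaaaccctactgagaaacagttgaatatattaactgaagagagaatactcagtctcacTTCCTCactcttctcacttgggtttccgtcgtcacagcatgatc
Laptm5, chr5:148371750-148371879, plus strand: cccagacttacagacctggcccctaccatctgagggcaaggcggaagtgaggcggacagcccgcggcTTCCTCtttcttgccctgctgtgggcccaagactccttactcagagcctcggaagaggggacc
The core starts 90 bases before the start in C1qb, 54 in Fcgr3a, 27 in Cd68, 44 in Cd53 and 63 in Laptm5. C1qb holds a further match 247 bases before its start, on the strand of the gene, outside the printed stretch.

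The arrays were close to each other, but single arrays stood apart for these genes. Pearson correlations between arrays lay between 0.993 and 0.998, and the 3′ minus 5′ difference of the GAPDH control probe sets between 0.49 and 0.54. The cardiomyocyte genes Myh6, Myl2 and Nppa read between 14.66 and 14.92 on all arrays, as suits a heart. The spiked-in hybridization controls read 11.54 on Dahl S array 3, 11.55 on congenic array 2 and 10.67 to 10.83 elsewhere. Dahl S array 3 also carried high B cell, T cell and fat-cell signal. The B cell gene Cd79b read 8.27 there and 6.78 to 7.06 on the other arrays, and the adipocyte gene Plin1 read 9.27 there against 7.37 to 8.98. Members that stand out on this array are therefore given with and without it. Dahl S array 1 stood apart in the other direction, as the lowest of 6 for 22 of the 33 members (background 23.5% of genes). The members were not alone in this. It was also the lowest for 5 of 6 adipocyte, 5 of 6 erythroid and 5 of 10 fibroblast markers. Among B cell and cardiomyocyte markers it was the lowest for 0 of 6 and 0 of 10.

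Most myeloid genes were slightly higher in the congenic heart, and no single one passed the test. Of the 33 measured genes, 28 had a difference above 0, where 46.7% of all genes did. This direction was not particular to the members. It was shared by 10 of 10 fibroblast, 7 of 7 platelet, 6 of 6 erythroid and 7 of 9 endothelial markers. Of the T cell, B cell and cardiomyocyte markers, 4 of 12, 0 of 6 and 2 of 10 were above 0. Limma called 0 of the 33 at an adjusted p under 0.05 (background 0.0352% of genes, 5 of 14217, and 0.0354% of all probe sets). At an unadjusted p under 0.05, 9 of the 33 (27.3%) lay above Dahl S and 0 lay below it, against 3.47% and 3.55% of all genes. The median difference was 0.13 over the 33 genes and -0.01 over all genes. In 10 of the 33 the strains did not overlap and the congenic arrays were the higher ones (background 5.89% of genes), and in 0 of the 33 the Dahl S arrays were (background 8.75%). In tissue RNA, more cells of a type and more RNA per cell cannot be told apart.

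**Figure D1:**
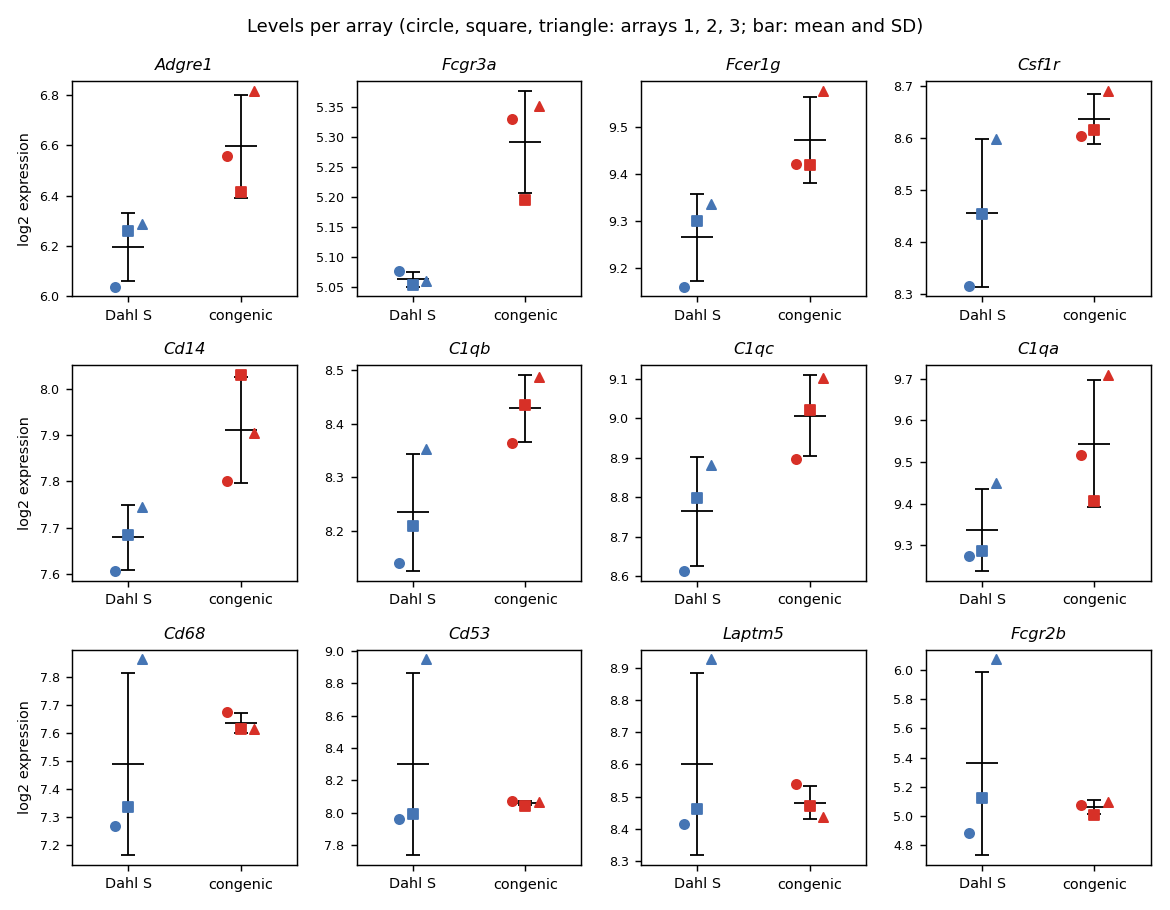
Log2 expression per array (y axis, own scale in each panel) of 12 myeloid genes in Dahl S (blue) and congenic (red) hearts, with circles, squares and triangles for arrays 1, 2 and 3 and bars for the mean and SD of 3 arrays. The congenic points of Adgre1, Fcgr3a, Fcer1g, Csf1r, Cd14, C1qb and C1qc lie above all Dahl S points, while the triangle of Dahl S array 3 stands above all others for Cd68, Cd53, Laptm5 and Fcgr2b.

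Among pan-myeloid surface receptors, Adgre1 had the largest difference. It encodes the adhesion receptor F4/80, a standard macrophage marker. Its log2 level was 6.04, 6.26 and 6.29 on Dahl S arrays 1, 2 and 3 and 6.56, 6.41 and 6.82 on congenic arrays 1, 2 and 3. The strains did not overlap, and congenic array 3 was the highest. The difference was 0.40 (SE 0.11, 95% interval 0.14 to 0.67, 1.32-fold), with an adjusted p of 0.729 in limma. It was between 0.29 and 0.49 with any 1 array left out. Adgre1 lies just below the median probe set in brightness (6.39 against 6.55).

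Csf1r encodes the receptor for colony-stimulating factor 1, on which macrophage survival depends. It read 8.32, 8.46 and 8.60 in Dahl S and 8.60, 8.62 and 8.69 in the congenic heart. The congenic arrays were close together and Dahl S array 3 came within rounding of the lowest of them. The difference was 0.18 (SE 0.08, adjusted p = 0.755 in limma). It was 0.11 without Dahl S array 1 and 0.02 between the arrays of high hybridization-control level.

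The Fc receptors, which bind the tails of antibodies, did not behave alike. Fcgr3a, an activating receptor for IgG, read 5.08, 5.05 and 5.06 in Dahl S and 5.33, 5.19 and 5.35 in the congenic heart. Its Dahl S values were nearly identical (SD 0.01, n = 3), and the difference of 0.23 (SE 0.06, adjusted p = 0.729 in limma) had the smallest p of the 33 genes. The probe set is dim, at the 29.2nd percentile of all probe sets. Rat Fc receptor genes are close relatives that have exchanged names; the gene meant here is the RefSeq Fcgr3a also known as Fcgr4.

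Fcer1g encodes the signalling chain that activating Fc receptors share. It read 9.16, 9.30 and 9.34 in Dahl S and 9.42, 9.42 and 9.58 in the congenic heart, without overlap (difference 0.21, SE 0.07, adjusted p = 0.736 in limma). Fcgr1a, the high-affinity IgG receptor grouped here with monocyte genes, read 7.05, 6.95 and 7.03 against 7.14, 7.15 and 7.23 (difference 0.17, SE 0.06). The activating receptors and their chain thus lay higher on all congenic arrays. Fcgr2b, the inhibitory receptor of the family, which B cells also carry, had a difference of -0.30 (SE 0.27) that rested on Dahl S array 3. It read 4.89 and 5.12 on Dahl S arrays 1 and 2, 6.07 on array 3, and 5.01 to 5.10 in the congenic heart, and without array 3 the difference was 0.06. Tyrobp, the partner chain of other myeloid receptors, read 7.81 to 8.19 in Dahl S and 7.81 to 8.15 in the congenic heart, and the strains overlapped over nearly their whole range (difference 0.04, SE 0.12; 0.15 without Dahl S array 3).

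The 3 chains of C1q, the recognition part of the first complement component, had similar differences. Their genes lie side by side on chromosome 5. C1qa read 9.27, 9.29 and 9.45 in Dahl S and 9.52, 9.41 and 9.71 in the congenic heart. C1qb read 8.14, 8.21 and 8.35 against 8.36, 8.43 and 8.49, and C1qc read 8.61, 8.80 and 8.88 against 8.90, 9.02 and 9.10. For each chain Dahl S array 1 was the lowest of the 6 arrays and congenic array 3 the highest. The differences were 0.21 (SE 0.09) for C1qa, 0.19 (SE 0.07) for C1qb and 0.24 (SE 0.09) for C1qc, with adjusted p from 0.736 to 0.755 in limma. The strains did not overlap for C1qb and C1qc, and they overlapped for C1qa. With congenic array 3 left out the differences were 0.12, 0.16 and 0.19.

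The other resident-associated genes showed smaller differences. Folr2, a folate receptor of resident cells, read 7.47, 7.52 and 7.51 in Dahl S and 7.56, 7.65 and 7.69 in the congenic heart, without overlap (difference 0.13, SE 0.06). Pf4, a chemokine of platelets that resident macrophages also make, differed by 0.16 (SE 0.08) and Mrc1, the mannose receptor, by 0.10 (SE 0.08). Both overlapped between the strains. The platelet genes in the marker list had a median difference of 0.05, with 0 of 7 at an unadjusted p under 0.05.

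Cd163 and Lyve1 had the differences nearest to 0 among the 8 resident-associated genes. Cd163, the scavenger receptor for haemoglobin, read 6.23, 6.31 and 6.24 in Dahl S and 6.28, 6.09 and 6.35 in the congenic heart. Its difference was -0.02 (95% interval -0.20 to 0.16). Lyve1, a hyaluronan receptor of resident macrophages and of lymphatic vessels, differed by 0.05 (95% interval -0.11 to 0.21), and its other probe set by 0.04. The resident-associated genes as a group had a median difference of 0.15. At an unadjusted p under 0.05, 2 of 8 were higher (background 3.47% of genes), C1qb and C1qc.

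Monocyte-associated genes were all on the positive side, 9 of 9 (background 46.7% of genes), with a median difference of 0.17. Those with an unadjusted p under 0.05 were 4 (background 3.47% of genes higher), namely Cd14, Fcgr1a, S100a8 and S100a9. Cd14, the co-receptor for bacterial lipopolysaccharide, read 7.61, 7.68 and 7.75 in Dahl S and 7.80, 8.03 and 7.90 in the congenic heart. The strains did not overlap (difference 0.23, SE 0.08, adjusted p = 0.736 in limma).

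S100a8 and S100a9 encode the paired subunits of calprotectin, which neutrophils hold in large amounts. S100a8 read 5.81, 5.87 and 5.75 in Dahl S and 5.91, 5.99 and 6.05 in the congenic heart, a difference of 0.17 (SE 0.06). S100a9 read 7.43, 7.51 and 7.74 against 7.76, 7.68 and 8.05, a difference of 0.27 (SE 0.12) with overlap. Congenic array 3 was the highest for both. Over 7 measured neutrophil markers the median difference was 0.13. Of these 7, 5 were above 0 (background 46.7% of genes) and 2 did not overlap, with the congenic arrays higher (background 5.89%). At an unadjusted p under 0.05, 1 was higher (background 3.47%). This was Lcn2, which read 8.20 to 8.27 in Dahl S and 8.43 to 8.49 in the congenic heart. The neutrophil granule gene Camp read 5.07 to 5.21 on all arrays, far below the median probe set. The part of neutrophils in the S100a8 and S100a9 values was not tested.

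Ccr2, which draws monocytes out of the bone marrow, was among the dimmest members, at the 12.6th percentile of probe sets. It read 4.16, 4.02 and 4.31 in Dahl S and 4.37, 4.37 and 4.28 in the congenic heart. The difference of 0.18 (SE 0.08) came with overlap. Cx3cr1, the fractalkine receptor, was also dim, and array 3 was its lowest in both strains, at 5.39 (Dahl S) and 5.46 (congenic), with a strain difference of 0.13 (SE 0.14). Itgam, the integrin chain CD11b, differed by 0.07 (SE 0.06), and the galectin gene Lgals3 by 0.06 (SE 0.06) at a high level of 9.88 to 10.03.

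**Figure D2:**
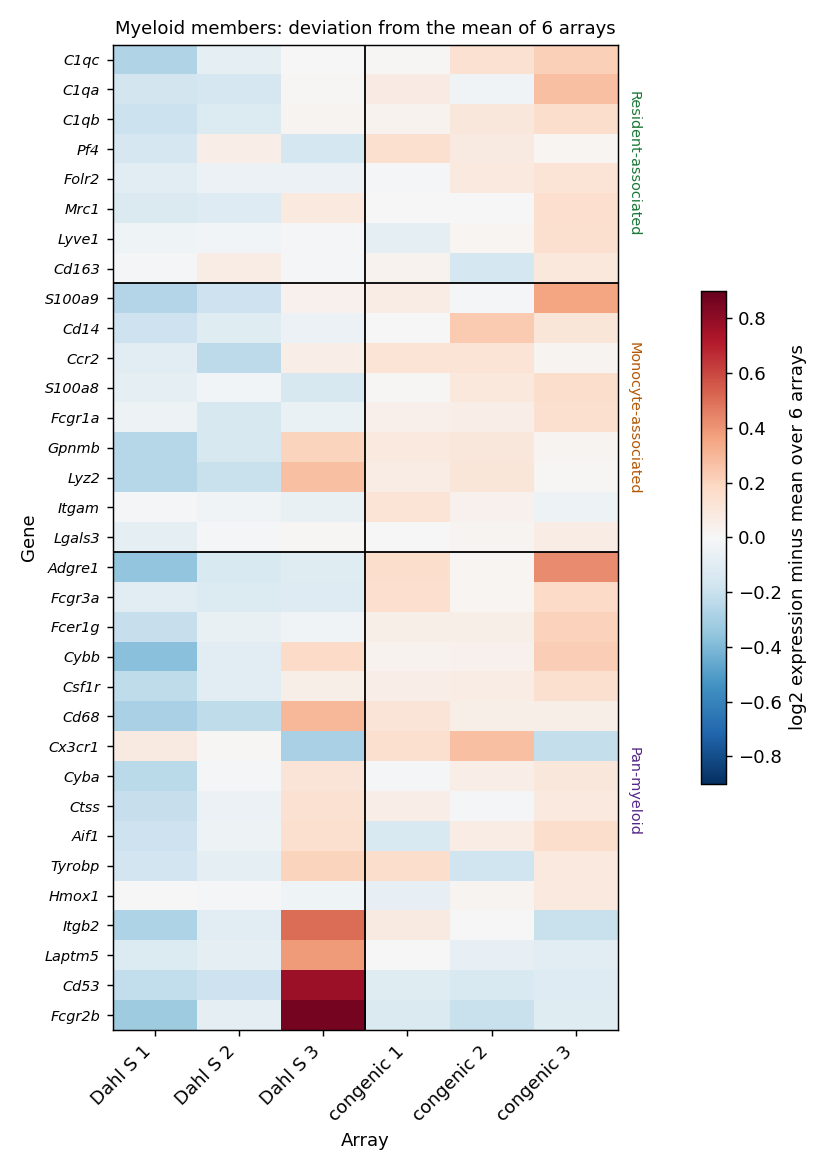
Deviation of each of the 33 measured myeloid genes from its own mean over 6 arrays (colour, log2 scale), by array in columns and by class in rows, each class ordered by the strain difference. Dahl S array 1 is blue in most rows, and Dahl S array 3 is red in a block of pan-myeloid rows with Cd53, Fcgr2b, Itgb2 and Laptm5.

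Array 3 of Dahl S stood apart for a subset of the members. It was the highest of 6 arrays for 10 of the 33, near the background of 26.5% of genes. In 9 of the 33 it lay more than 0.3 above the mean of Dahl S arrays 1 and 2, where 4.23% of all genes did. This step was chosen after the values had been seen. The 9 were 7 pan-myeloid genes and the monocyte-associated Lyz2 and Gpnmb. Fcgr2b was 1.07 above, Cd53 0.97, Itgb2 0.69, Cd68 0.56 and Lyz2 0.50. No resident-associated gene was among them, and for those 8 the largest such step was 0.21, for Mrc1.

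Cd53, a tetraspanin of all leukocytes, shows the pattern most plainly. It read 7.96 and 7.99 on Dahl S arrays 1 and 2, 8.95 on array 3, and 8.07, 8.04 and 8.07 in the congenic heart. The strain difference was -0.24 (SE 0.24) with all arrays and 0.08 without Dahl S array 3. Laptm5, a lysosomal protein of leukocytes, read 8.42, 8.46 and 8.93 in Dahl S and 8.54, 8.47 and 8.44 in the congenic heart. Its difference was -0.12 (SE 0.13) with all arrays and 0.04 without that array, and its other probe set gave -0.13 with all arrays.

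Itgb2, the common chain of the leukocyte integrins, read 7.55, 7.73 and 8.33 in Dahl S and 7.91, 7.82 and 7.63 in the congenic heart. Its difference of -0.08 became 0.15 without Dahl S array 3. Cd68, a lysosomal glycoprotein of macrophages and the sole measured member on chromosome 10, read 7.27, 7.34 and 7.86 against 7.68, 7.62 and 7.62. Its difference was 0.15 (SE 0.15) with all arrays, 0.33 without that array, 0.04 without array 1 and 0.07 without array 2. Lyz2, the lysozyme of phagocytes, read 10.94, 11.00 and 11.47 against 11.27, 11.31 and 11.21. Its difference was 0.13 with all arrays, 0.29 without Dahl S array 3, 0.03 without array 1 and 0.06 without array 2. Without Dahl S array 3 neither Cd68 nor Lyz2 passed, with an adjusted p of 0.655 and 0.665 in limma.

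B cell and T cell markers were high on the same array. Over 6 measured B cell markers the median lay 0.73 above Dahl S arrays 1 and 2, and over 12 T cell markers 1.06 above. Over 8 NK cell markers it lay 0.06 above, and 0 of the 8 were more than 0.3 above (background 4.23% of genes). Congenic array 1 was high in T cell markers alone. Cd3g, a chain of the T cell receptor complex, read 9.12 on Dahl S array 3, 9.05 on congenic array 1 and 6.37 to 6.64 elsewhere. On congenic array 1 the B cell median was -0.16 against its own 6-array mean, and Cd53 and Fcgr2b stood at 8.07 and 5.08. Itgb2, at 7.91, had its second highest value there. Adipocyte markers lay 1.21 and MHC class II genes 0.32 above Dahl S arrays 1 and 2 on Dahl S array 3, as medians over 6 and 11 genes. Leukocyte adhesion and migration genes lay 0.38 above, as a median over 19 genes. Of these 19, 10 were more than 0.3 above (background 4.23% of genes). Of 8 lymphatic endothelial markers 1 was more than 0.3 above, the chemokine gene Ccl21, and their median step was -0.03. Adipocyte markers were also high on congenic array 2, with a median of 0.68 against their own 6-array means, and low on Dahl S array 1 (-0.85). Several lists were thus high on Dahl S array 3 at once, and the part of any of these cell types in the myeloid values was not tested.

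**Figure D3:**
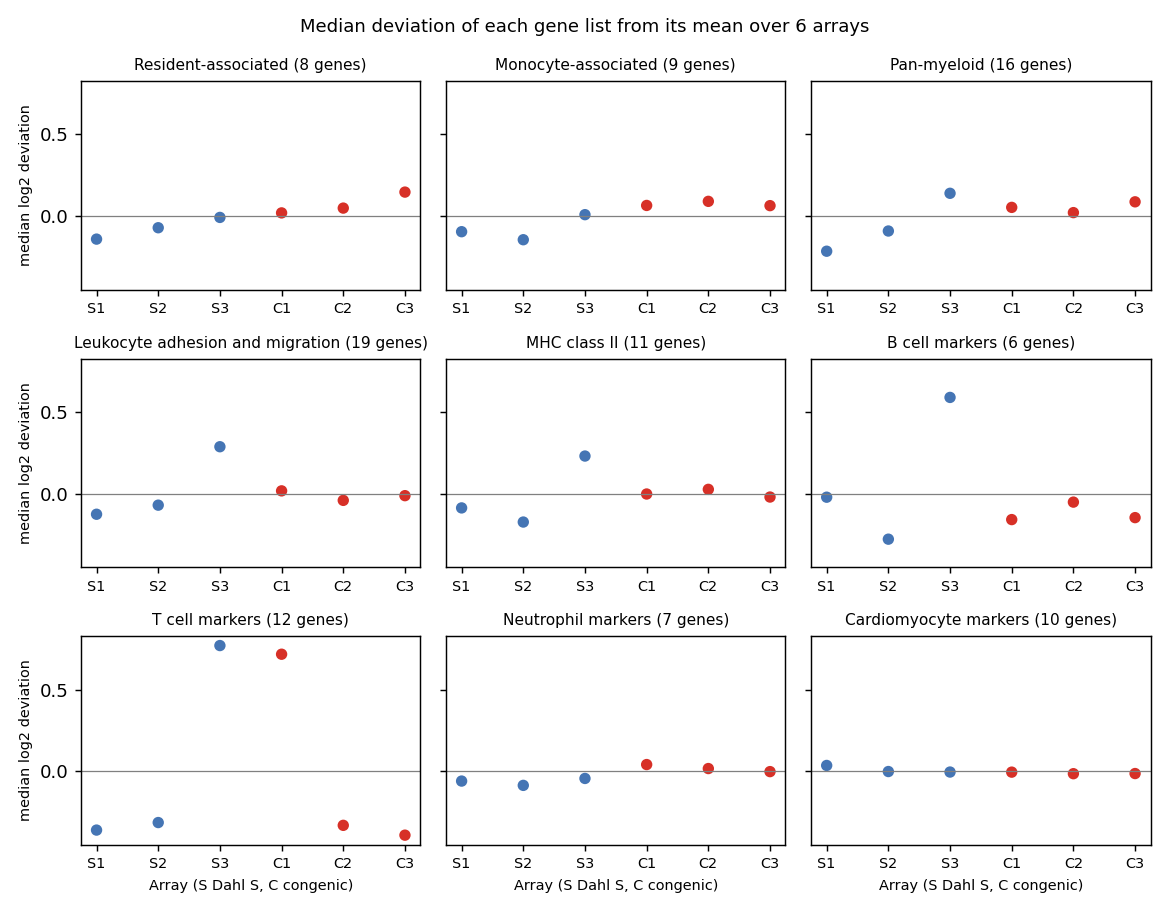
Median log2 deviation of the genes in 9 lists (y axis, same scale in all panels) on each array, S1 to S3 for Dahl S in blue and C1 to C3 for the congenic in red. B cell markers, MHC class II genes and leukocyte adhesion and migration genes are high on S3, and T cell markers on S3 and C1. Cardiomyocyte markers are flat, while the resident-associated median runs from -0.14 on S1 to 0.15 on C3.

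The count of higher members depended on which array was left out. Without Dahl S array 3, 32 of the 33 differences were above 0. By unadjusted p, 16 members were then higher and 0 lower (background 3.88% higher and 3% lower). Of the fibroblast, erythroid and T cell markers, 7 of 10, 2 of 6 and 0 of 12 were higher in the same fit. Without Dahl S array 1, 4 members were higher (background 4.58%) and 0 lower (background 5.01%). Without congenic array 3 there were 3 higher (background 2.62%) and 0 lower (background 2.31%). The median difference over the 33 genes was 0.17, 0.06 and 0.13 in these fits. Limma called 0 of the 33 in each. Without Dahl S array 1, 20 of the 33 differences came nearer to 0 and 3 changed sign, and 8 shrank by over 1.5 times. These were Csf1r, Cd68, Lyz2, Gpnmb, Cybb, Cyba, Mrc1 (0.06) and Lgals3 (0.03). Over only the 4 arrays with a low hybridization-control reading 16 were higher and 0 lower (background 2.91% higher and 2.29% lower), and between the 2 arrays of high level, Dahl S array 3 and congenic array 2, the median difference was 0.01 and 11 of the 33 changed sign.

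The class medians are set out by array. On Dahl S arrays 1, 2 and 3 the resident-associated median was -0.14, -0.07 and -0.01 (deviation from the genes' own 6-array means), and on congenic arrays 1, 2 and 3 it was 0.02, 0.05 and 0.15. The pan-myeloid median was -0.21, -0.09 and 0.14 in Dahl S and 0.05, 0.02 and 0.09 in the congenic heart. The monocyte-associated median was -0.09, -0.14 and 0.01 in Dahl S and 0.07, 0.09 and 0.07 in the congenic heart. The strains did not overlap in the resident-associated and monocyte-associated medians, and in the pan-myeloid median Dahl S array 3 lay above all congenic arrays. The pan-myeloid median difference was 0.09 with all arrays and 0.16 without Dahl S array 3, the resident-associated one 0.15 and 0.16, and the monocyte-associated one 0.17 and 0.25. Between the 2 arrays of high hybridization-control level the pan-myeloid median was -0.10, the resident-associated 0.06 and the monocyte-associated 0.07. Whether the classes differ was not tested.

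**Figure D4:**
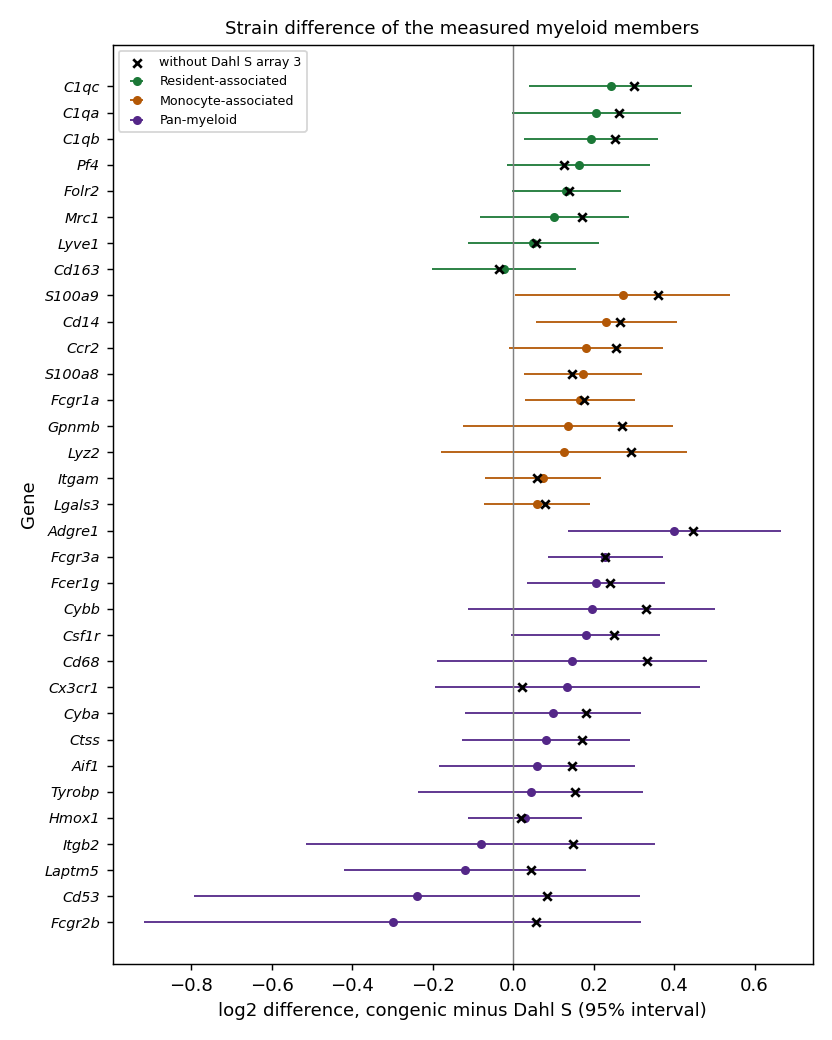
Log2 difference of each measured myeloid gene, congenic minus Dahl S (x axis), with its 95% interval from 3 arrays per strain, coloured by class, and the same difference without Dahl S array 3 as a cross. Most points lie right of 0, and the crosses of Cd53, Fcgr2b, Laptm5 and Itgb2 move from the negative to the positive side.

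The phagocyte oxidase makes superoxide in macrophages and neutrophils. Cybb, its catalytic membrane subunit, read 7.12, 7.41 and 7.67 in Dahl S and 7.53, 7.53 and 7.72 in the congenic heart, a difference of 0.20 (SE 0.13) with overlap. Leaving out Dahl S array 3 gave 0.33, and leaving out array 1 gave 0.06. Cyba, the partner subunit, differed by 0.10 (SE 0.09), by 0.18 without Dahl S array 3 and by 0.0015 without array 1. On these probe sets both subunits thus hung on single Dahl S arrays. Each had a dimmer probe set, at the 27.1st percentile for Cybb and the 25.3rd for Cyba. That of Cybb gave 0.13, with 0.14 without Dahl S array 3 and 0.07 without array 1. That of Cyba gave 0.11, with 0.03 without Dahl S array 3 and 0.14 without array 1. In the list of other oxidase subunits, activators and related oxidases, 4 of 8 measured genes were above 0, with a median of 0.05. At an unadjusted p under 0.05, 1 was higher (background 3.47% of genes), Nox4 (0.21, from 5.06 to 5.27). Nox4 is an oxidase found in muscle and vessel cells rather than phagocytes. Ctss, a protease of antigen-presenting cells, differed by 0.08 (SE 0.09), and Aif1, an actin-binding macrophage marker, by 0.06 on its brighter probe set and -0.05 on the dimmer. Gpnmb, a glycoprotein of lipid-laden macrophages, differed by 0.14 (SE 0.11), by 0.27 without Dahl S array 3 and by 0.04 without array 1. Hmox1, which degrades haem and is induced in macrophages by it, read 7.11 to 7.28 on all 6 arrays and differed by 0.03 (95% interval -0.11 to 0.17).

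Other myeloid pathways had medians nearer 0. In the list of growth factors, their receptors and myeloid transcription factors, 0 of 22 measured genes had an unadjusted p under 0.05, and the median difference was 0.03. For this list and those below, the background at such a p was 3.47% of genes higher and 3.55% lower. In the list of immunoreceptor signalling, 2 of 16 were higher and 0 lower. They were Clec7a, the beta-glucan receptor dectin-1 (0.20), and Lilrb4, an inhibitory immunoglobulin-like receptor (0.30). Among other complement genes 1 of 11 was higher, Cfp (0.15), which encodes properdin, and the median was 0.06. In the efferocytosis and lipid list 1 of 22 was higher (4.55%, near the background), the endocytic receptor gene Lrp1 (0.18). Lrp1 also stood for 1 of 11 in the haem and iron list. In the lysosomal list 0 of 14 had such a p, although all 14 were brighter than the median probe set.

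Inflammatory genes gave 4 higher and 1 lower of 25 measured at an unadjusted p under 0.05 (background 3.47% higher and 3.55% lower). The higher ones included the receptor gene Tlr2 (0.18) and the chemokine genes Ccl2 (0.32) and Ccl4 (0.16). The lower one, named after its value had been seen, was the neutrophil chemoattractant gene Cxcl1 (-0.20). Of the 25, only 8 were brighter than the median probe set. Without Dahl S array 3, 2 were higher and 1 lower (background 3.88% and 3%). Without congenic array 3, 1 was higher and 0 lower (background 2.62% and 2.31%). In the list of leukocyte adhesion and migration 1 of 19 was higher, Cd52 (0.34), with a list median of -0.03 that was 0.05 without Dahl S array 3. In the MHC class II list 0 of 11 were higher and 1 was lower, RT1-DMb (-0.18). Its median was -0.01 with all arrays and 0.15 without Dahl S array 3, on which 6 of the 11 genes lay more than 0.3 above Dahl S arrays 1 and 2. Limma called 0 genes of these lists at an adjusted p under 0.05, and the lowest adjusted p among them was 0.729.

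Markers of other cell types are given for scale. Over 10 fibroblast markers the median difference was 0.15. At an unadjusted p under 0.05, 2 of 10 were higher (background 3.47% of genes), the collagen genes Col1a1 (0.24) and Col1a2 (0.39). Over 6 erythroid markers the median was 0.29, with 2 of 6 higher, Alas2 (0.36) and Ahsp (0.40). Their part in the myeloid values was not tested. Over 10 cardiomyocyte markers the median was -0.02, with 0 at such a p, and over 9 endothelial markers it was 0.03, with 1 of 9 higher, Eng (0.13). All congenic arrays lay above all Dahl S arrays for 3 of 6 erythroid, 3 of 9 endothelial and 2 of 10 fibroblast markers (background 5.89% of genes). The same held for 0 of 12 T cell, 0 of 6 B cell and 0 of 10 cardiomyocyte markers. Over 12 T cell, 6 B cell, 8 NK cell, 5 dendritic cell, 9 mast cell, 8 lymphatic endothelial and 6 adipocyte markers the medians lay between -0.24 and 0.03. Among these, the markers with such a p were Mcpt1 and Lep on the higher side and Hdc, Tpsab1 and Gzma on the lower. Col1a2, Ahsp and the last 5 were named after their values had been seen.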

How the data were processed

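Per the submitters' processing notes, the authors used RMA, so the deposited log2 values per probe set are already background-corrected and normalized across arrays. Its version and probe annotation are not given in the sources used here. No further normalization was applied. The 57 control probe sets of 31099 were left out. Symbols of the platform annotation were updated through RefSeq (GRCr8), and 20826 probe sets had exactly 1 gene.

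Strains were compared (3 against 3 arrays) by limma 3.58.1 under R 4.3.3 with lmFit, eBayes and no covariate. P-values were adjusted after Benjamini-Hochberg over 31042 probe sets, and an adjusted p under 0.05 was a call, which 11 probe sets met. The fit was tested on simulated data. Intervals are at 95% confidence, the number of arrays limits the precision, and p-values measure only the spread between pools.

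The members, classes and lists were chosen with earlier results of these data known, so lists are described by counts and medians, without a test. All measured members were named, of each pathway list up to 3 genes of smallest unadjusted p under 0.05, and of each marker list up to 3 of the brightest. Other genes were named after their values had been seen, as stated. Alternatives were each array left out, other scaling, blocks, other variance models, a filter on dim probe sets and other probe rules. Figures used matplotlib 3.10.9 and Python 3.11.15.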

Additional observations from a re-analysis of the deposited data

How the results depend on the processing

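Limma called 0 members in every alternative run, while 9 had an unadjusted p under 0.05 as reported. The 11 called probe sets of the whole table became 5 to 6 with 1 array left out, 5 with the replicate block, 5 with a block for the hybridization-control reading, 2 within the arrays of low level, 23 with an intensity trend and robust prior, and 0 with the ordinary variance. The count of 9 members ran from 3 to 16 with 1 array left out and was 16 within the arrays of low level. The deviations of same-numbered arrays from their strain means correlated at -0.07, -0.06 and -0.18, and those of arrays of different number at -0.09 to 0.16. With 3 arrays per strain, such values cannot tell whether same-numbered pools shared a day or handling. The cause of the changes in the counts was not tested. The resident-associated median was 0.0557 between the arrays of high level. The monocyte-associated median was 0.0653 there and ran from 0.11 to 0.25 with 1 array left out, and the pan-myeloid median was -0.10 there. Several differences, none of them called, changed sign. With 1 array left out, the difference ran from -0.0778 to 0.051 for Cd163, -0.0097 to 0.11 for Lyve1, -0.54 to 0.056 for Fcgr2b, -0.0176 to 0.15 for Aif1, -0.0322 to 0.15 for Tyrobp, -0.21 to 0.0432 for Laptm5, -0.24 to 0.15 for Itgb2, -0.0014 to 0.17 for Ctss, -0.41 to 0.0838 for Cd53 and -0.0081 to 0.0733 for Hmox1. Within the arrays of low level it was 0.0401 for Cd163, 0.0831 for Fcgr2b, 0.0487 for Laptm5, 0.13 for Itgb2, -0.0789 for Cx3cr1 and 0.0921 for Cd53. Between the arrays of high level 11 turned negative, namely C1qa (-0.0431), Mrc1 (-0.0828), S100a9 (-0.0567), Lyz2 (-0.16), Gpnmb (-0.10), Cd68 (-0.25), Cybb (-0.13), Cyba (-0.0514), Ctss (-0.16), Aif1 (-0.0753) and Tyrobp (-0.38). Quantile normalization, centring each array on its median and averaging a gene's probe sets changed no member's direction. The 8 members dimmer than the median probe set, among them Adgre1, Fcgr3a, Fcgr2b and Ccr2, are the least secure in signal over background.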
